A study of Mus musculus with 71 samples.

Results

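The cerebellum and the cortex of naive wild-type (WT) mice were compared by small RNA sequencing, with 6 libraries from the right cerebellum set against 6 from the left cortex, 12 of the 71 libraries of the study. The members were the libraries that the labels call WT and naive in either tissue, and the same 6 numbered male mice gave both tissues. The study paired WT mice with DYT1KI mice, a knock-in model of the inherited dystonia DYT-TOR1A, and crushed the right sciatic nerve of some mice of either genotype at an age of 12 weeks. Naive mice had no crush, and the label for time, 12 weeks post injury, is given for them too. The other groups used below were the cerebellum and cortex of WT mice with crush (5 and 6 libraries), of naive DYT1KI mice (6 and 6) and of DYT1KI mice with crush (6 and 6), and the left striatum of naive WT mice (6). The cerebellum was extracted with the miRNeasy mini kit and the cortex with the micro kit, per the labels' protocols, so tissue, side of the brain and kit cannot be told apart in any value below. In bulk tissue, fewer cells of a type and less RNA per cell cannot be told apart either.

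MicroRNAs (miRNAs) are short RNAs, cut from hairpin precursors, that guide Argonaute proteins to messenger RNAs. Bases 2 to 8 of the mature strand, the seed, set most of the pairing with a target, and miRNAs with the same seed form a family. A hairpin can give a mature strand from its 5′ arm (5p) and from its 3′ arm (3p), and usually 1 of the arms dominates. The cerebellum is packed with small granule neurons and arises from the hindbrain, while the cortex is a forebrain structure whose excitatory neurons carry many activity-regulated genes. MiRNAs hosted by region-specific or cell-type-specific genes can therefore mark a region.

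The mature sequences of the miRNAs on which the comparison turned are given from RefSeq (GRCm38.p6), in which 416 of the 501 miRNAs tested matched a single mature sequence. Capitals mark the seed, bases 2 to 8 from the 5′ end. The first set was higher in the cerebellum and shows a muscle miRNA, the shared seed of the Hox miRNAs, the related seeds of the miR-183 cluster, a miRNA of the serotonin receptor gene Htr2c, the shared seed of miR-34b and miR-449a, and the shared seed of the miR-15/16 family.
miR-206-3p: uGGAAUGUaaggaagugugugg
miR-10a-5p: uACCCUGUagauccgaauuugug
miR-10b-5p: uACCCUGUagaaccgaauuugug
miR-183-5p: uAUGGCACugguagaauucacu
miR-182-5p: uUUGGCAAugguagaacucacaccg
miR-96-5p: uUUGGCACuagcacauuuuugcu
miR-448-3p: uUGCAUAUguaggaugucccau
miR-34b-5p: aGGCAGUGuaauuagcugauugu
miR-449a-5p: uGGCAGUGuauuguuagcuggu
miR-497a-5p: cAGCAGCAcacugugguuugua
miR-195a-5p: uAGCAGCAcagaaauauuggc
miR-16-5p: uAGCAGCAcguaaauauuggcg

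The second set was lower in the cerebellum and shows the shared seed of the activity-regulated pair miR-132 and miR-212, the shared seed of miR-221 and miR-222, both arms of miR-139, and 3 more strands with large differences.
miR-132-3p: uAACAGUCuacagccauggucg
miR-212-3p: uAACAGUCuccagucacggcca
miR-221-3p: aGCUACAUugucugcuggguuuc
miR-222-3p: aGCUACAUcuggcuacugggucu
miR-139-5p: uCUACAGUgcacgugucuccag
miR-139-3p: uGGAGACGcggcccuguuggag
miR-128-3p: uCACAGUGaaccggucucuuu
miR-31-5p: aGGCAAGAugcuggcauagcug
miR-125b-5p: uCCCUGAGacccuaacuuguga

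The 6 cerebellar libraries held 9188959 to 12582875 miRNA counts (median 10475644) and the 6 cortical libraries 5182284 to 8871108 (median 7538735). Of 1927 mature miRNAs listed, 896 had a count in the 12 libraries and 501 passed the filter on low counts. In a cerebellar library 65.8 to 68.5% of the counts came from its 10 leading miRNAs, and in a cortical one 57.0 to 61.6%. Levels are therefore given as CPM (counts scaled to a common library size) after TMM scaling, whose factors were 0.72 to 0.95 in the cerebellar libraries and 1.10 to 1.53 in the cortical ones. Replicates are named by the biological replicate number of the labels (biol rep). In naive WT mice it stands for the same mouse in both tissues, but in WT mice with crush it does not. Biol rep 5 of the naive WT cortex had the lowest total and the highest factor. The first principal component held 73.45% of the variance and separated the tissues, and the second held 11.52% and separated biol reps 1 to 3 from biol reps 4 to 6 in both. The neural miRNAs miR-124-3p and miR-9-5p were among the 10 most abundant miRNAs of both tissues.

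Of the 501 miRNAs tested, 218 (43.5%) differed between cerebellum and cortex, 104 (20.8%) higher and 114 (22.8%) lower in the cerebellum. A call required an adjusted p under 0.05 in edgeR's quasi-likelihood test and a log2 fold change, cerebellum over cortex, of at least 1 in size. A miRNA could pass the filter on low counts through either tissue alone, and could then hardly be called toward the other tissue. The median log2 fold change of all 501 was 0.06, and the median size among the calls was 1.68. With the adjusted p alone, 324 (64.7%) passed. The 6 cerebellar and the 6 cortical values did not overlap for 226 miRNAs (45.1%), among them 176 of the calls, and 214 of the 218 calls had the same direction in all 6 mice. Calls took 45.6% of the 204 miRNAs with a mean under 10 CPM and 26.2% of the 61 with 1000 CPM or more, where 12 were higher and 4 lower. With library totals alone in place of the TMM factors, the log2 fold changes shifted by -0.56 (median), and 57 miRNAs were called higher and 171 lower. All 218 main calls kept their sign under that scaling, and 171 of them were called again in the same direction. Biol reps 1 to 3 alone gave 100 higher and 124 lower, and biol reps 4 to 6 alone gave 94 higher and 134 lower. Without biol rep 5 of the cortex, 105 were called higher and 120 lower.

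**Figure D1:**
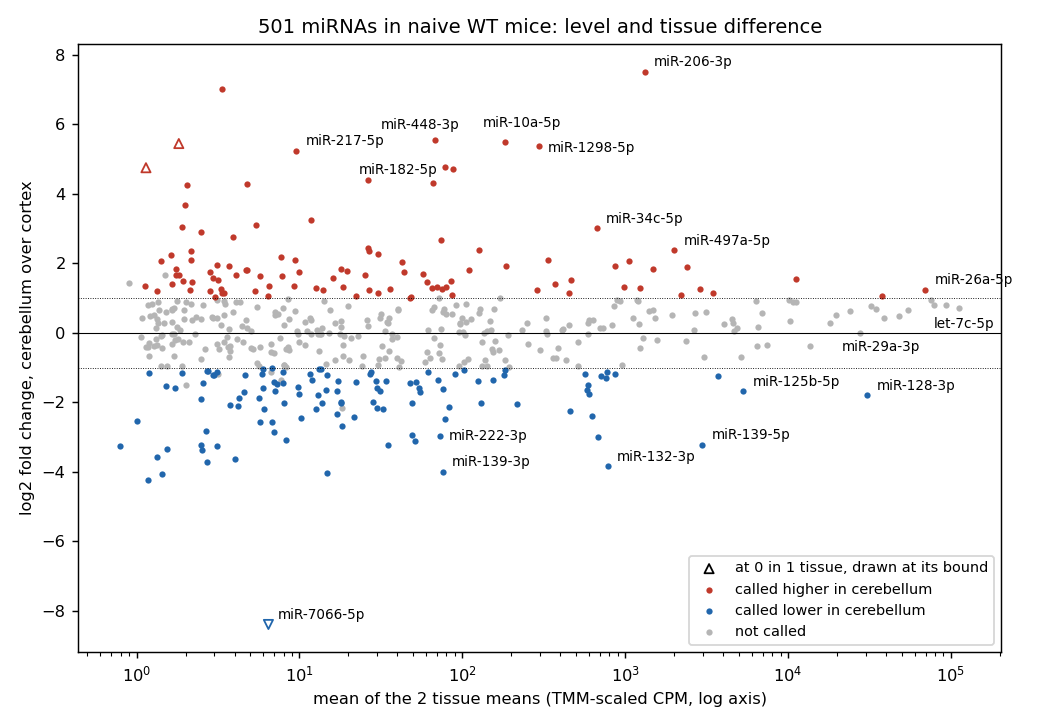
Log2 fold change, cerebellum over cortex, of each of the 501 miRNAs tested (vertical axis) against the mean of its 2 tissue means (horizontal axis, TMM-scaled CPM, log scale); coloured points are the 104 miRNAs called higher and the 114 called lower in the cerebellum, and open triangles are miRNAs with a count of 0 in all libraries of a tissue, drawn at their bound from library totals. MiR-206-3p stands highest at 7.51, and calls in both directions occur at every level, with 12 higher and 4 lower at 1000 CPM or more.

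MiR-206-3p, a miRNA best known from skeletal muscle, had the largest fitted difference of the miRNAs counted in both tissues that were named by size. It measured 1919.8 CPM (lowest), 2705 (median) and 3184 (highest) in the cerebellum, against 11.1, 14.2 and 17.98 CPM in the cortex. The tissues were far apart, and every mouse had the higher value in the cerebellum. The means were 2625 ± 466 CPM in the cerebellum and 14.4 ± 2.59 CPM in the cortex (SD, n = 6 each), with a log2 fold change of 7.51 ± 0.20 (SE) and an adjusted p of 4.41e-13. Its hairpin lies at chr1:20679010-20679082 (plus strand, GRCm38), in an exon of the long intergenic RNA Gm28653 in GENCODE M21. Of the 4 striated muscle miRNAs tested, 2 were called higher and 0 lower, a share of 50% beside 43.5% of all tested. Their median log2 fold change was 0.89, beside 0.06 for all tested. MiR-1a-3p, which acts in heart and skeletal muscle, had 1467, 2671 and 6098 CPM in the cerebellum and 748, 1469 and 2048 CPM in the cortex. These ranges overlap, and its call (1.10 ± 0.33, adjusted p 0.00932) was lost with the mouse as a block (0.95), in biol reps 1 to 3 alone (0.27), and without biol rep 4, 5 or 6 of the cerebellum (0.71, 0.93 and 0.97) or biol rep 5 of the cortex (0.96). The other 2 were not called, at 0.43 ± 0.26 for the row shared by miR-133a-3p and miR-133b-3p and 0.69 ± 0.19 for miR-499-5p, a miRNA of slow muscle.

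All 4 tested miRNAs of the Hox clusters, the gene clusters that pattern hindbrain and spinal cord, were called higher in the cerebellum. This was 100% of the list's tested members, beside 43.5% called of all tested. MiR-10a-5p had 153.6, 379.9 and 512 CPM in the cerebellum against 6.42, 8.12 and 9.02 CPM in the cortex (log2 fold change 5.50 ± 0.29, adjusted p 1.52e-09). MiR-10b-5p, with the same seed, had 101, 174 and 226 CPM against 4.91, 5.51 and 10.2 CPM (4.71 ± 0.26, adjusted p 1.91e-09). Neither range overlapped with its cortical one. The miR-10a hairpin lies at chr11:96317165-96317274 (plus strand), with no other gene annotated on its strand, and the miR-10b hairpin at chr2:74726070-74726137 (plus strand) in introns of Hoxd3 and Hoxd4. The other 2 members were at 0 in all 6 cortical libraries. They passed the filter on low counts through the cerebellum alone, so no call toward the cortex was possible for them. MiR-10a-3p had 22 to 41 counts in the cerebellum, at least 43.5-fold higher against a floor of 3 counts over the cortical group, and miR-615-3p, from the HoxC cluster, had 14 to 30 counts and was at least 26.9-fold higher. With these 2 at their bounds the median log2 fold change of the 4 was 5.10. The bounds used library totals with no TMM factor, and the other 2 values TMM scaling.

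The miR-183 cluster, known from sensory cells of eye and ear, was called higher in the cerebellum in all 4 members tested (100%). The share called of all tested was 43.5%, and the cluster's median log2 fold change was 4.58. MiR-182-5p had 114, 153 and 196 CPM in the cerebellum and 1.89, 6.10 and 7.94 CPM in the cortex (4.76 ± 0.31, adjusted p 9.96e-09). MiR-183-5p had 42.2, 49.6 and 59.5 CPM in the cerebellum and 1.51, 1.96 and 4.33 CPM in the cortex (4.39 ± 0.25, adjusted p 2.27e-09). MiR-96-5p had 6.42, 7.85 and 14.2 CPM in the cerebellum and 0, 0.367 and 1.06 CPM in the cortex (4.29 ± 0.44, adjusted p 1.05e-06). The ranges of the 3 strands did not overlap between the tissues. Their hairpins share the minus strand of chr6:30165918-30169737. MiR-183-3p, the other arm of miR-183, was at 7.01 ± 0.55 (adjusted p 7.58e-08). It had 42 to 72 counts in the cerebellum and 0 to 2 in the cortex, so this value rests on counts near 0. MiR-183-3p and miR-96-5p passed the filter through their cerebellar counts, so a call toward the cortex was hardly possible for them. The low-count arm miR-96-3p had 6 to 15 counts in the cerebellum and 0 in every cortical library, at least 11.6-fold higher.

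The miRNAs in introns of Htr2c, which encodes the serotonin 2C receptor and is strongly expressed in choroid plexus epithelium, were called higher in the cerebellum in all 6 members tested (median 4.28). This was 100% of the tested members, beside 43.5% called of all tested. MiR-448-3p had 72.2, 135 and 193 CPM in the cerebellum and 1.53, 2.80 and 5.23 CPM in the cortex (5.54 ± 0.34, adjusted p 5.56e-09). MiR-1298-5p had 371, 588 and 769 CPM in the cerebellum and 7.25, 13.2 and 24.6 CPM in the cortex (5.36 ± 0.36, adjusted p 1.08e-08). MiR-1264-3p had 84.0, 131 and 166 CPM in the cerebellum and 3.15, 6.10 and 9.90 CPM in the cortex (4.31 ± 0.28, adjusted p 9.96e-09). No cortical library reached the lowest cerebellar value of any of these 3. MiR-1912-3p (4.26 ± 0.64), miR-764-3p (3.25 ± 0.23) and miR-1298-3p (3.10 ± 0.34) had the same direction. MiR-1912-3p had 22 to 51 counts in the cerebellum and 0 to 6 in the cortex, and passed the filter through its cerebellar counts. So did miR-1298-3p, with 63 to 107 counts in the cerebellum and 4 to 16 in the cortex. A call toward the cortex was hardly possible for either. The hairpins of miR-764, miR-1298 and miR-448 lie on the plus strand of the X chromosome at chrX:147002259-147002366, chrX:147064905-147065002 and chrX:147158210-147158321.

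Tested markers of choroid plexus and ependyma, the epithelium and ciliated lining of the ventricles, had the same direction between cerebellum and cortex as these miRNAs. All 7 markers tested (100%) were called higher in the cerebellum (median 2.08), beside 43.5% called of all miRNAs tested. Their summed level was 1681 to 2358 CPM in the cerebellum and 332 to 475 CPM in the cortex. They are strands of the miR-34b, miR-34c, miR-204 and miR-449a hairpins, with arms counted separately. MiR-34c-3p (2 to 14 counts in the cortex) and miR-34b-3p (2 to 8) passed the filter mainly through the cerebellum, so calls toward the cortex were hardly possible for them. Of 12 markers listed, 8 had a count in the 12 libraries, and 1 of them, miR-211-5p, was at 0 in the cerebellum. Of the 7, 5 were called higher with library totals alone. MiR-34c-5p, a miRNA of cells with motile cilia, had 904, 1217 and 1309.9 CPM in the cerebellum and 123, 150.2 and 168 CPM in the cortex. The ranges did not overlap (3.02 ± 0.14, adjusted p 2.07e-10). MiR-34b-5p, which is transcribed with it (chr9:51103562-51103645, minus strand), was at 2.43 ± 0.24 (adjusted p 6.48e-07), and miR-449a-5p, which carries the same seed as miR-34b-5p and lies in an intron of Cdc20b, was at 2.36 ± 0.18 (adjusted p 4.30e-08). MiR-204-5p, abundant in choroid plexus epithelium, had 311, 483 and 870.2 CPM in the cerebellum and 122, 193 and 293 CPM in the cortex (1.39 ± 0.29, adjusted p 0.0006). Its call was lost with library totals alone (0.89). Of 4 tested miR-200 family miRNAs, which mark other epithelia, 1 was called higher (miR-141-3p, 1.80 ± 0.40, adjusted p 0.00115) and 0 lower. That share, 25%, lay below the 43.5% called of all tested. The part of choroid plexus or ependymal tissue in any of these differences was not tested.

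**Figure D2:**
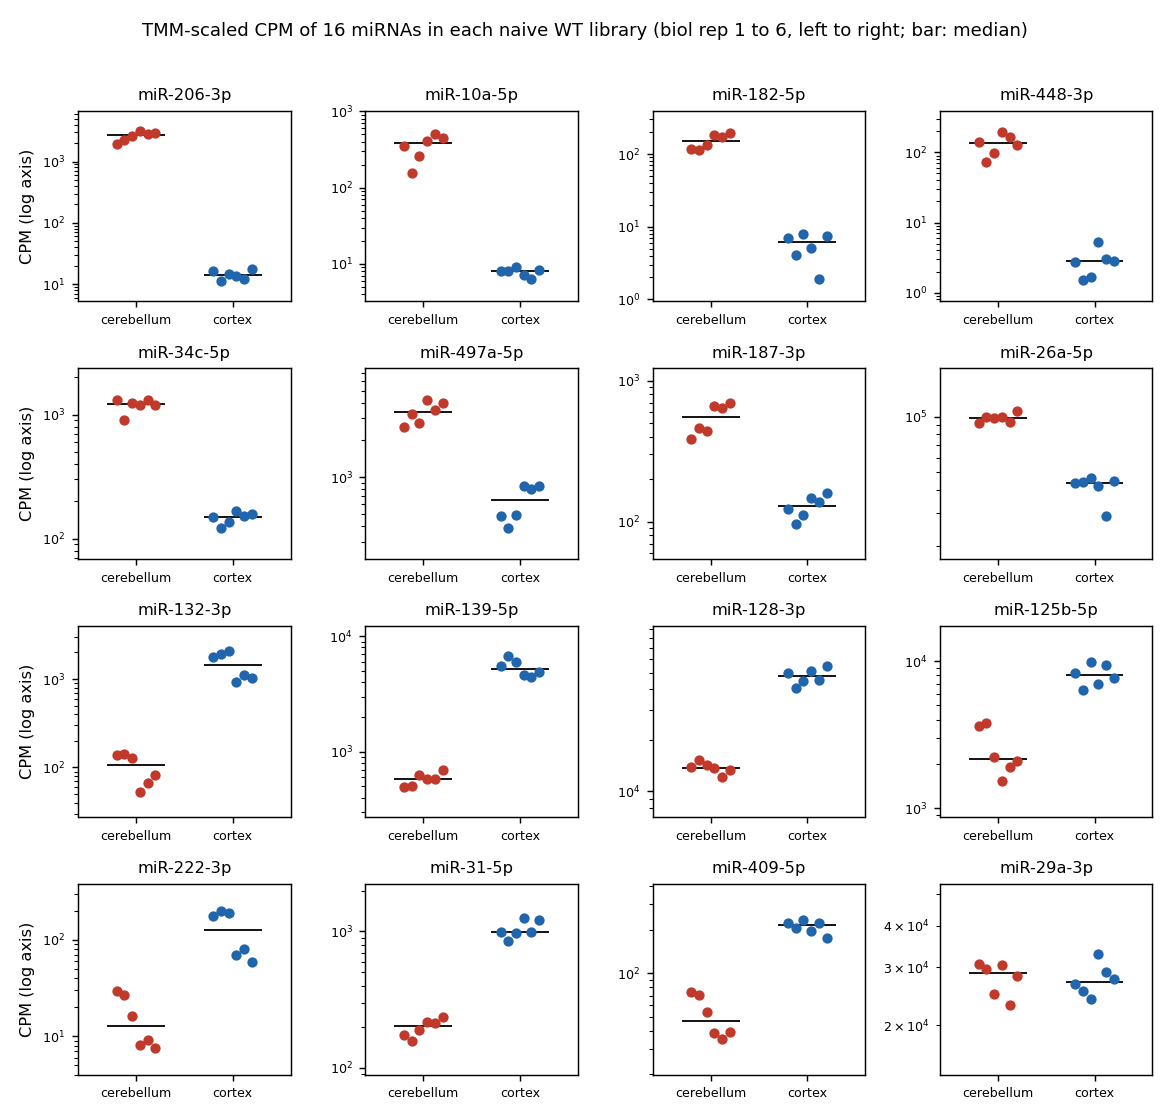
TMM-scaled CPM (log scale) of 16 miRNAs in the 6 cerebellar libraries (left) and the 6 cortical libraries (right) of naive WT mice, biol reps 1 to 6 from left to right within a tissue, with a bar at each tissue's median. MiR-206-3p sits at 1919.8 to 3184 CPM in the cerebellum and at 11.1 to 17.98 CPM in the cortex, miR-132-3p lies lower in the cerebellum and falls into biol reps 1 to 3 and 4 to 6 within both tissues, and the tissues overlap for miR-29a-3p.

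The miR-15/16 family, which restrains the cell cycle, held abundant miRNAs with calls toward the cerebellum. MiR-497a-5p had 2545, 3358 and 4198 CPM in the cerebellum and 389, 651 and 849 CPM in the cortex (2.38 ± 0.22, adjusted p 3.94e-07). MiR-195a-5p, whose hairpin lies beside that of miR-497 on the plus strand of chr11:70234717-70235135, had 2912, 3612 and 4776 CPM in the cerebellum and 611, 1049.9 and 1268 CPM in the cortex (1.88 ± 0.19, adjusted p 7.78e-07). MiR-16-5p, with 4.16 ± 0.313% of the counts in the cerebellum and 2.92 ± 0.387% in the cortex (SD, n = 6 each), was close to the threshold at 1.06 ± 0.16. Its call was lost without biol rep 4, 5 or 6 of the cerebellum (0.96, 0.95 and 0.94), without biol rep 5 of the cortex (0.96) and with library totals alone (0.50). MiR-15a-5p (0.14 ± 0.19) and miR-15b-5p (-0.25 ± 0.17), which carry the same seed, were not called. Of the 9 tested miRNAs of the list that joins miR-34a to this family, 4 were higher and 0 lower. The called share was 44.4%, beside 43.5% of all tested.

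MiR-26a-5p, a broadly expressed miRNA, took 8.09 ± 0.627% of all counts in the cerebellum and 4.97 ± 0.298% in the cortex. It had 92066, 98525 and 106632 CPM in the cerebellum and 28860.0, 43754 and 46474 CPM in the cortex, with no overlap (1.24 ± 0.11, adjusted p 3.24e-07). Its relative miR-26b-5p was at 1.54 ± 0.16 (adjusted p 1.34e-06). With library totals alone miR-26a-5p was at 0.69 and not called. MiR-7a-5p, a brain miRNA bound by the circular RNA Cdr1as, had 2651, 4112 and 5846 CPM in the cerebellum and 1308, 1750 (median) and 1934 CPM in the cortex (1.27 ± 0.18, adjusted p 2.83e-05), and its call was lost with library totals alone (0.69) and in biol reps 1 to 3 alone (0.88). MiR-187-3p had 385, 552 and 693 CPM in the cerebellum and 95.6, 129.7 and 161 CPM in the cortex (2.08 ± 0.19, adjusted p 2.85e-07). It stood on the forebrain-high list, against the direction of that list's name.

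The rodent-specific miRNA cluster in an intron of the imprinted gene Sfmbt2 had 17 of its 21 tested members called higher in the cerebellum and 1 lower (median 1.49). In all, 85.7% of its tested members were called, beside 43.5% of all tested. The median of its members' mean levels was 4.66 CPM in the cerebellum and 1.87 CPM in the cortex. A member with low counts could pass the filter through the cerebellum alone, and could then hardly be called lower. Its summed level was 328 to 591 CPM in the cerebellum and 110.6 to 159.5 CPM in the cortex. MiR-467e-5p, the most abundant member, had 137, 234 and 277 CPM in the cerebellum and 33.4, 39.1 and 55.7 CPM in the cortex (2.37 ± 0.21, adjusted p 2.85e-07). MiR-466i-5p was the member called lower (-1.19 ± 0.29, adjusted p 0.0021). The members have near-identical copies and several share a row of the tables, so counts of single members are uncertain. With library totals alone, 9 were called higher and 1 lower.

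Of the 15 miRNAs with the largest calls toward the cerebellum that had at least 10 CPM there, those not yet described were miR-217-5p and miR-700-3p. MiR-217-5p had 10.8, 19.6 and 25.6 CPM in the cerebellum and 0, 0.532 and 1.06 CPM in the cortex (5.23 ± 0.53, adjusted p 8.21e-07). With 0 to 10 counts in the cortex, this value rests on counts near 0. MiR-217-5p passed the filter through its cerebellar counts, so a call toward the cortex was hardly possible. MiR-700-3p had 66.1, 132 and 191 CPM in the cerebellum and 10.1, 20.8 and 29.5 CPM in the cortex (2.66 ± 0.32, adjusted p 5.41e-06). Neither overlapped between the tissues. The low-count strands miR-10b-3p (6 to 18 counts), miR-1251-3p (7 to 13) and miR-1982-5p (6 to 15), were above 0 in all 6 cerebellar libraries and at 0 in all 6 cortical ones, and were at least 16.9-, 14.4- and 14.1-fold higher against the floor.

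The activity-regulated miRNAs, which neuronal firing induces in part through CREB, were on the other side. Of 10 tested, 7 were called lower in the cerebellum and 0 higher (median -2.08). The called share was 70%, beside 43.5% of all tested. The summed level of the list, miR-29a-3p included, overlapped, with 23470 to 31190 CPM in the cerebellum and 28220 to 35300 CPM in the cortex. MiR-132-3p, which acts on dendrites and synapses, had 52.9, 106 and 142 CPM in the cerebellum and 929.8, 1433 and 2057 CPM in the cortex. The ranges were far apart (-3.84 ± 0.31, adjusted p 1.11e-07), and the means were 102 ± 39.5 CPM in the cerebellum and 1463 ± 501 CPM in the cortex (SD, n = 6 each). Within both tissues biol reps 1 to 3 lay above biol reps 4 to 6, with 128.6 to 141.9 against 52.9 to 82.8 CPM in the cerebellum and 1758.9 to 2056.9 against 929.8 to 1106.7 CPM in the cortex. MiR-132-5p was at -2.999 ± 0.18 (adjusted p 5.56e-09). MiR-212-3p, which has the seed of miR-132-3p and a hairpin beside it on the plus strand of chr11:75173388-75173747, had 5.65, 10.2 and 16.7 CPM in the cerebellum and 65.7, 90.7 and 119 CPM in the cortex (-3.10 ± 0.30, adjusted p 5.13e-07), and miR-212-5p was at -3.21 ± 0.40. The list also held miR-184-3p (-2.46 ± 0.22, adjusted p 2.29e-07), miR-146a-5p, an inhibitor of inflammatory signalling (-1.70 ± 0.31, adjusted p 0.000241), and miR-485-5p (-1.38 ± 0.24, adjusted p 0.000181). MiR-29a-3p was at 0.01 ± 0.11, miR-134-5p at 0.70 ± 0.16 and miR-188-5p at 0.87 ± 0.19, and none of these 3 was called.

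Of 12 tested miRNAs on the forebrain-high list, 8 were called lower in the cerebellum and 2 higher (median -1.53). In all, 83.3% of the list was called, beside 43.5% of all tested. The list was chosen with earlier results of these data known, so its direction is not an independent result. MiR-139-5p, encoded in an intron of the phosphodiesterase gene Pde2a (chr7:101475376-101475443, plus strand), had 496, 579.5 and 694 CPM in the cerebellum and 4467, 5244 and 6698 CPM in the cortex (-3.21 ± 0.14, adjusted p 2.03e-10). Its other arm, miR-139-3p, had 5.66, 8.69 and 12.5 CPM in the cerebellum and 93.0, 143 and 182 CPM in the cortex (-3.99 ± 0.22, adjusted p 1.91e-09). Both arms were lower in the cerebellum of every mouse, with no overlap. MiR-31-5p, from chr4:88910557-88910662 (minus strand), had 156.98, 202 and 237 CPM in the cerebellum and 852, 991 and 1257 CPM in the cortex (-2.40 ± 0.15, adjusted p 4.97e-09). MiR-221-3p, a regulator of the cell cycle inhibitor p27, had 124, 152 and 203 CPM in the cerebellum and 686, 742 and 848 CPM in the cortex (-2.25 ± 0.15, adjusted p 1e-08). MiR-222-3p, its neighbour on the minus strand of chrX:19146294-19146971 with the same seed, had 7.52, 12.7 and 29.6 CPM in the cerebellum and 59.2, 126.7 and 199.98 CPM in the cortex (-2.98 ± 0.44, adjusted p 3.94e-05). MiR-222-3p also lay higher in biol reps 1 to 3 than in biol reps 4 to 6 of both tissues. MiR-138-5p, a miRNA of dendrites, was not called (-0.39 ± 0.15).

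Of 9 tested pan-neuronal miRNAs, 5 were called lower in the cerebellum and 0 higher (median -1.24). The called share was 55.6%, beside 43.5% of all tested, and all 5 calls were strands of miR-128 and miR-137. The summed level of the list overlapped, with 128300 to 185700 CPM in the cerebellum and 124300 to 159700 CPM in the cortex. MiR-128-3p, which dampens neuronal excitability in mice, had 12198, 13817 and 15369 CPM in the cerebellum and 40669, 47589 and 54427 CPM in the cortex, and its share of the counts was 1.15 ± 0.179% in the cerebellum and 5.77 ± 0.765% in the cortex (SD, n = 6 each). The ranges did not overlap (-1.79 ± 0.10, adjusted p 1.91e-09). The mature strand is cut from hairpins in introns of R3hdm1 (chr1:128202361-128202430, plus strand) and Arpp21 (chr9:112118636-112118711, minus strand), whose 5p arms can be told apart. Both 5p arms were lower. MiR-128-1-5p had 0.607, 1.73 and 2.45 CPM in the cerebellum against 15.1, 24.6 and 45.2 CPM in the cortex (-4.03 ± 0.37, adjusted p 3.3e-07). MiR-128-2-5p was at -4.22 ± 0.68 (adjusted p 8.36e-05), a value that rests on 0 to 6 counts in the cerebellum and 12 to 34 in the cortex. MiR-137-3p, a miRNA of synapses and neuronal maturation, was at -1.24 ± 0.14 (adjusted p 1.81e-06) and miR-137-5p at -2.55 ± 0.23. MiR-124-3p, a hallmark of neurons, was not called at 0.66 ± 0.18 and its ranges overlapped, and miR-9-5p was not called at 0.43 ± 0.09. With library totals alone miR-124-3p was at 0.15 and miR-9-5p changed sign to -0.12.

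Of 6 tested miR-129, miR-153 and miR-218 strands, most of them neuronal, 3 were lower in the cerebellum and 0 higher, and 5 were lower with library totals alone. The called share under TMM scaling was 50%, beside 43.5% of all tested. MiR-218-5p was at -1.29 ± 0.19 (adjusted p 4.07e-05) and miR-129-1-3p/129-2-3p at -2.47 ± 0.45 (adjusted p 0.00022), while miR-129-5p, the other arm, was at -0.14 ± 0.16 and not called. MiR-153-3p was at -1.06 ± 0.20 (adjusted p 0.000286) and lost its call without biol rep 1 or 2 of the cortex (-0.99 and -0.92). MiR-125b-5p, a miRNA of neural differentiation, had 1527, 2161 and 3809 CPM in the cerebellum and 6405, 7989 and 9839 CPM in the cortex (-1.68 ± 0.22, adjusted p 1.06e-05). MiRNAs of the miR-99/100 family, which are encoded beside miR-125 genes, had other values: miR-100-5p was at 1.31 ± 0.22 (adjusted p 0.000124) and miR-99a-5p at 0.66 ± 0.15, not called. MiR-100-5p was at 0.73 and not called with library totals alone.

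The strands with the largest calls toward the cortex also held miR-328-3p, miR-664-3p, miR-485-3p and miR-346-5p. MiR-328-3p had 7.19, 11.9 and 13.97 CPM in the cerebellum and 72.1, 90.2 and 96.8 CPM in the cortex (-2.94 ± 0.19, adjusted p 6.93e-09). MiR-664-3p was at -3.08 ± 0.32, miR-485-3p at -2.85 ± 0.27 and miR-346-5p, hosted in an intron of the glutamate receptor gene Grid1, at -2.67 ± 0.26. MiR-7066-5p, in an intron of the proteoglycan gene Ncan (chr8:70102524-70102586, minus strand), had 0 counts in all 6 cerebellar libraries and 10.3 to 17.3 CPM in the cortical ones. By library totals, against a floor of 3 counts over the group, it was at least 334.7-fold lower in the cerebellum, a bound that covers counting error only. Library totals shifted log2 fold changes by -0.56 (median) from TMM scaling, so the bound would be smaller under TMM scaling. In the cerebellum of the other groups 2 libraries held 57 and 63 counts and the others 0, and whether low counts were removed before deposit is not given.

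Maternally expressed miRNAs of the imprinted Dlk1-Dio3 region on chromosome 12 were called lower in the cerebellum in part of their listed members. In the miR-379/410 cluster, processed from the long RNA Mirg, 22 of 56 tested members were lower in the cerebellum and 0 higher (median -0.78). In the cluster antisense to Rtl1, 5 of 16 were lower and 0 higher (median -0.55). The called shares, 39.3% and 31.2%, were below the 43.5% of all miRNAs tested that were called in either direction. All of these main calls were lower, and both shares were above the 22.8% of all miRNAs tested that were called lower. The counts lower were 33 and 8 with library totals alone, and in biol reps 1 to 3 alone miR-381-3p was called higher (1.09). MiR-409-5p had 34.9, 46.7 and 73.7 CPM in the cerebellum and 174, 214 and 234 CPM in the cortex, with no overlap (-2.01 ± 0.20, adjusted p 8.82e-07). MiR-541-5p had 257, 342 and 439 CPM in the cerebellum and 560.0, 768 and 1034 CPM in the cortex (-1.17 ± 0.20, adjusted p 0.000142), and miR-434-3p was at -2.04 ± 0.38 (adjusted p 0.000261). Members of the miR-379/410 cluster spanned -3.71 (miR-667-3p) to 0.96 (miR-381-3p, not called), and miR-411-5p was at 0.08 ± 0.15. Other members were positive and uncalled under TMM scaling but negative with library totals alone, among them miR-411-5p (-0.49).

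The most abundant family, let-7, a set of differentiation miRNAs, had 0 of 9 guide strands called (0%), beside 43.5% of all tested. All 9 log2 fold changes were below the size of 1 that a call required, so 0 calls do not mean equal levels. The 6 cerebellar and the 6 cortical values did not overlap for 6 of the 9, beside 45.1% of all tested. In biol reps 4 to 6 alone let-7g-5p (1.13) and let-7f-5p (1.07) were called higher, and let-7g-5p also without biol rep 2 of the cerebellum (1.01). Let-7c-5p took 11.4% of the counts in the cerebellum and 10.3% in the cortex and was at 0.70 ± 0.13, and let-7g-5p had the largest value of the family at 0.96 ± 0.16. The log2 fold changes of the 9 ran between 0.48 and 0.96 under TMM scaling. With library totals alone their median was 0.14, and let-7b-5p (-0.09) and let-7e-5p/7k (-0.06) changed sign. The guide strands of miR-29, regulators of matrix and epigenetic genes, were not called either, with miR-29a-3p at 0.01 ± 0.11, miR-29b-3p at -0.39 ± 0.17 and miR-29c-3p at 0.16 ± 0.13. Under library totals alone miR-29a-3p was at -0.55. In contrast, all 4 tested 5p arms of miR-29 were called lower, among them miR-29b-2-5p at -1.63 ± 0.20 (adjusted p 6.71e-06). Of both arms together, 57.1% of the 7 tested miR-29 strands were called. The calls of miR-29a-5p (-1.19 ± 0.41) and miR-29c-5p (-1.04 ± 0.30) were lost in biol reps 1 to 3 alone (-0.95 and -0.86), and that of miR-29c-5p also without biol rep 4 or 5 of the cerebellum (-0.99 and -0.95) or biol rep 2 of the cortex (-0.94).

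Markers of other cell types were mixed. Called shares were 20% for oligodendrocyte, 50% for erythroid and 20% for endothelial and mural miRNAs, beside 43.5% of all tested. Of 5 tested oligodendrocyte markers 1 was higher and 0 lower: miR-338-3p, which promotes oligodendrocyte maturation, had 4365, 4639 and 5481 CPM in the cerebellum and 1829, 2076 and 2759 CPM in the cortex (1.13 ± 0.12, adjusted p 8.91e-07). Its call was lost without biol rep 1 of the cerebellum (0.97) and with library totals alone (0.56). Of 11 microglia, leukocyte and inflammation miRNAs 2 were higher and 4 lower, with summed levels of 1981 to 2259 CPM in the cerebellum and 2076 to 2515 CPM in the cortex. The called share was 54.5%, beside 43.5% of all tested, and with library totals alone 0 were called higher and 5 lower. The B and T cell miRNA miR-150-5p was at -2.15 ± 0.25 (adjusted p 3.98e-06) and the inflammation miRNA miR-155-5p at 1.26 ± 0.25 (adjusted p 0.000408). The call of miR-155-5p was lost in biol reps 1 to 3 alone (0.77) and with library totals alone (0.70). The myeloid marker miR-223-3p was at -0.02 ± 0.31, and the leukocyte marker miR-142a-3p was at -1.06 ± 0.34, a call lost with the mouse as a block (-0.96) and without biol rep 1 or 2 of the cortex (-0.95 and -0.80). Of 4 erythroid miRNAs 2 were higher and 0 lower, and miR-451a, the red cell marker, was not called at -1.36 ± 0.84 but was called with the mouse as a block (-1.73). Of 5 endothelial and mural miRNAs 0 were higher and 1 lower, miR-145a-5p at -1.58 ± 0.28 (adjusted p 0.000195). The endothelial miR-126a-3p was at 0.29 ± 0.16 and the smooth muscle miR-143-3p at 0.56 ± 0.14, and both were negative with library totals alone (-0.27 and -0.01). All 3 tested strands (100%) of the mesenchymal miRNAs miR-199 and miR-214 were higher (median 1.83), beside 43.5% called of all tested. Of these 3, 2 were called higher with library totals alone, and 1 of the erythroid miRNAs. The part of any of these cell types in the regional differences was not tested.

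**Figure D3:**
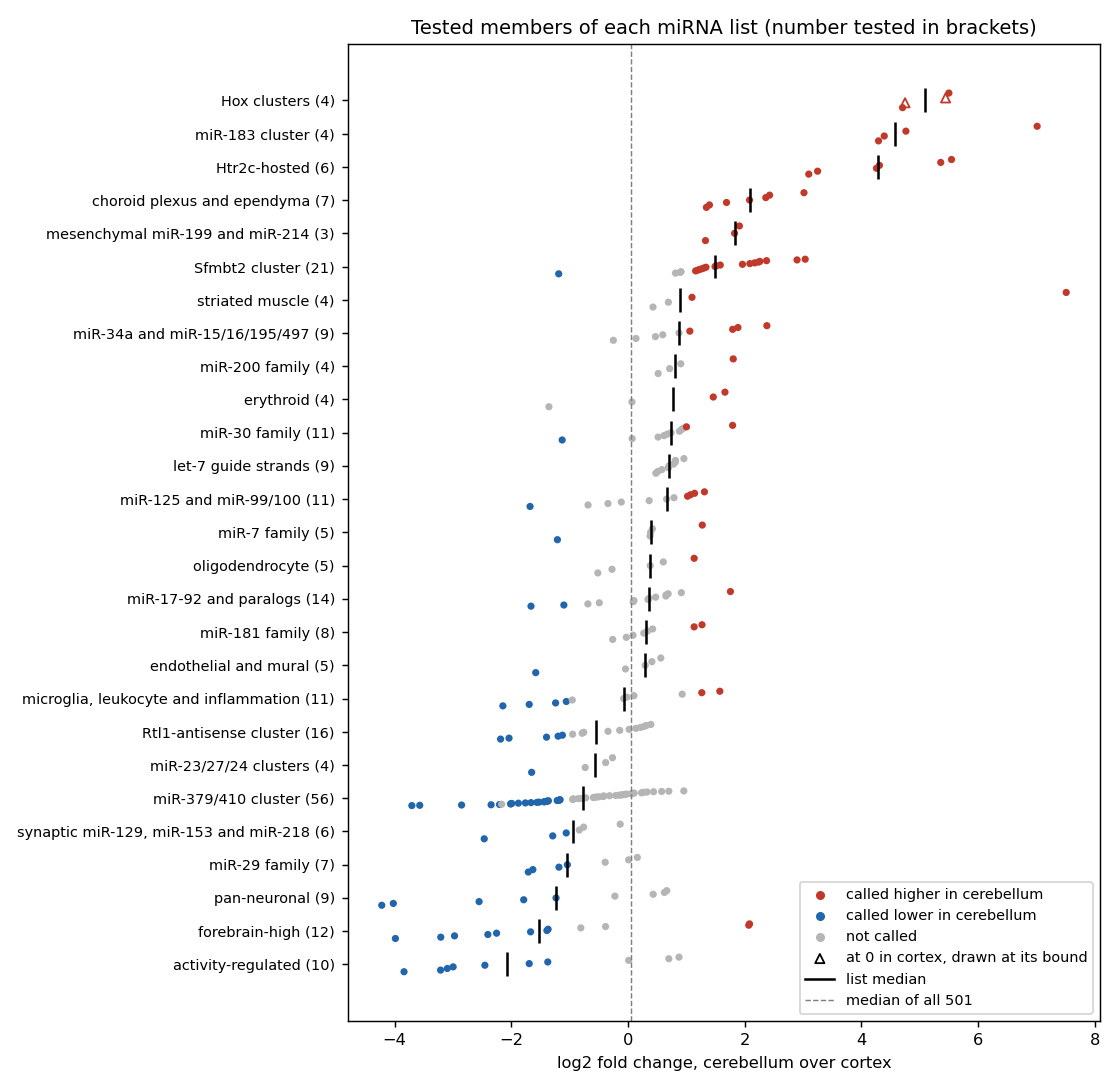
Log2 fold change, cerebellum over cortex, of the tested members of 27 miRNA lists (1 row per list, 1 point per miRNA; coloured points are called higher or lower in the cerebellum, grey points are not called), with a black bar at each list's median and a dashed line at 0.06, the median of all 501 miRNAs tested. The Hox, miR-183 and Htr2c-hosted lists lie at 3.10 or more, the activity-regulated list has its median at -2.08, and let-7 guide strands lie between 0.48 and 0.96 with 0 calls at this scaling.

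Seeds and genome positions were then set beside the calls. In 12 seed families with at least 3 tested miRNAs, 13 of 49 miRNAs were called (26.5%, beside 43.5% of all tested). The miR-15/16 seed held 3 calls and the seed of miR-34b and miR-449a 2, all toward the cerebellum, 8 families held a single call, and the let-7 family and the miR-29 guide strands held 0. Of 35 groups of hairpins within 10 kb of each other on a strand, 11 held no call, 7 a single one and 17 held 2 or more, arms of a hairpin counted separately. A strand with hairpins in several groups was counted in each of them. With 43.5% of all miRNAs tested called, groups with several members can hold 2 or more calls, and the number to be expected was not worked out. Of the 17 groups with 2 or more, 6 had calls toward the cerebellum alone, 10 toward the cortex alone and 1 both. The group with both, on the minus strand of chrX:52741693-52742567, held miR-20b-5p, higher at 1.75 ± 0.32 (adjusted p 0.000245), and miR-92a-3p and miR-19b-3p, lower at -1.66 ± 0.26 (adjusted p 6.26e-05) and -1.10 ± 0.46 (adjusted p 0.0474). The mature strands of the last 2 also come from hairpins on chromosome 14, so their counts cannot be assigned to either locus. Only miRNAs matched to a sequence could be placed, 65.4% of those called higher and 90.4% of those called lower, so shares by chromosome lean toward lower calls. Of all 416 matched, 68 were called higher and 103 lower. Chromosome 12 held 86 matched miRNAs, of which 1 was called higher and 30 lower in the cerebellum, and the X chromosome held 42, of which 10 were higher and 5 lower.

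The ratio between the 2 arms of a hairpin does not depend on the scaling between libraries, and was compared for 119 hairpins with both arms tested. Both arms were called higher for 13 hairpins and both lower for 14, opposite calls occurred for 0, a single arm was called for 42 and neither for 50. In limma on log2((5p count + 0.5)/(3p count + 0.5)), 39 hairpins (32.8%) had a different arm ratio, 24 with a higher 5p share in the cerebellum and 15 with a lower one, and the 12 libraries did not overlap by tissue for 22 of them. MiR-361, in an intron of Chm (chrX:113074824-113074893, minus strand), had a mean log2 5p to 3p ratio of 7.96 ± 0.248 in the cerebellum and 5.74 ± 0.184 in the cortex (SD, n = 6 each), with a 5p share of 99.6% in the cerebellum and 98.2% in the cortex. The difference was 2.22 ± 0.16 (SE, adjusted p 7.92e-07). This 5p share and those below were calculated from the mean log2 ratio of a tissue, not from pooled reads. For miR-455 the 5p share was 40.0% in the cerebellum and 12.0% in the cortex (2.29 ± 0.29, adjusted p 7.16e-05). The 5p share was also higher in the cerebellum for miR-671 (97.9% in the cerebellum and 91.8% in the cortex, difference 2.02 ± 0.20), miR-330 (95.4% and 85.6%, 1.80 ± 0.21), miR-433 (96.2% and 82.7%, 2.40 ± 0.35), let-7d (2.78 ± 0.34) and miR-1298 (2.28 ± 0.31). It was lower for miR-145a, at 68.9% in the cerebellum and 87.3% in the cortex (-1.63 ± 0.24, adjusted p 0.000219). Taking in each hairpin the arm with fewer reads, 19 were called higher and 35 lower in the cerebellum (median -0.36), and of the arms with more reads 18 were higher and 24 lower (median 0.06). The RNA of the tissues was isolated with different kits, and its part in the arm ratios was not tested.

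**Figure D4:**
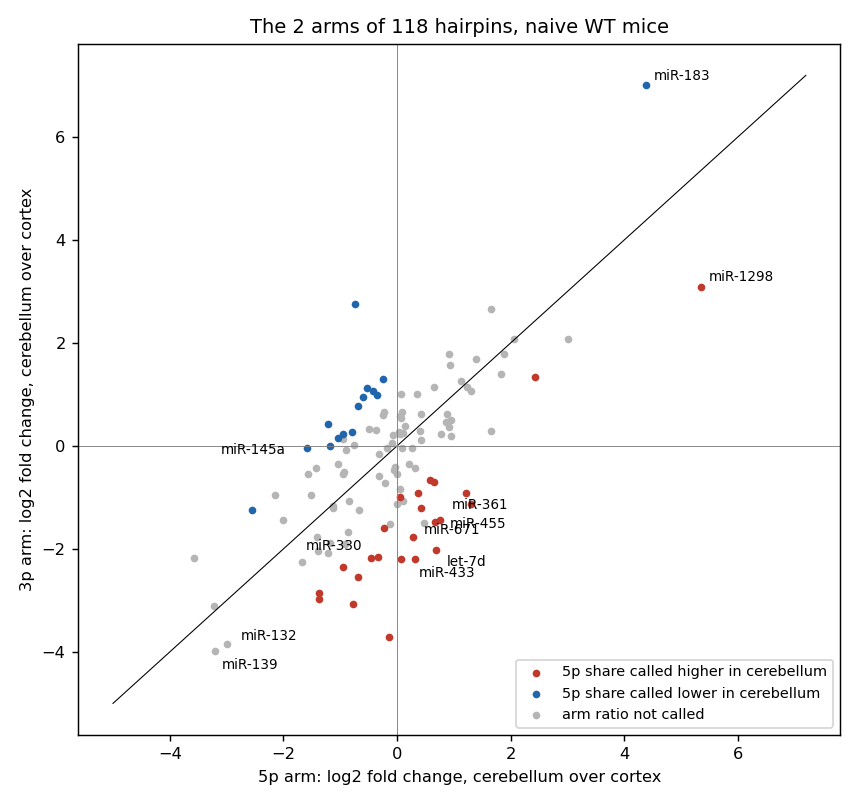
Log2 fold change, cerebellum over cortex, of the 3p arm against that of the 5p arm for 118 hairpins with both arms tested (miR-10a is left out because miR-10a-3p was at 0 in the cortex); coloured points are hairpins whose arm ratio differed between the tissues, in red where the 5p share was higher in the cerebellum. No hairpin has 1 arm called higher and the other called lower, and most coloured points are hairpins with the 5p share higher, such as miR-361 at a difference of 2.22.

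The striatum of the same mice shows where the cerebellum stood apart from a second forebrain region. The cerebellar libraries enter both comparisons, so the values are given side by side as levels from a fit of 18 libraries. Of 534 miRNAs tested between cerebellum and striatum, 223 (41.8%) were called, 95 (17.8%) higher and the rest (24%) lower in the cerebellum. The balance depended on the scaling, with 111 higher and 116 lower by RLE, 137 higher and 89 lower by upper quartiles, and 63 higher and 183 lower with library totals alone. MiR-206-3p averaged 2585 CPM in the cerebellum, 16.02 CPM in the cortex and 253 ± 35.95 CPM in the striatum (SD, n = 6), and miR-10b-5p 166 CPM in the cerebellum, 7.16 CPM in the cortex and 0.324 ± 0.283 CPM in the striatum. MiR-1298-5p averaged 576 CPM in the cerebellum, 15.9 CPM in the cortex and 87.9 ± 5.97 CPM in the striatum. Each of these was highest in the cerebellum, whereas miR-187-3p averaged 537 CPM in the cerebellum, 144.5 CPM in the cortex and 5718 ± 265 CPM in the striatum (cerebellum over striatum -3.41 ± 0.15, adjusted p 1.57e-13). MiR-449a-5p was likewise between the forebrain regions, with 43.9 CPM in the cerebellum, 9.62 CPM in the cortex and 213 ± 17.4 CPM in the striatum (-2.28 ± 0.13, adjusted p 4.61e-12). MiR-139-5p was lowest in the cerebellum with 573 CPM, at 5994 CPM in the cortex and 22536 ± 1909.6 CPM in the striatum. MiR-222-3p, at 16.7 CPM in the cerebellum, 143 CPM in the cortex and 28.3 ± 3.70 CPM in the striatum, did not differ between cerebellum and striatum by the call (-0.75 ± 0.38, adjusted p 0.0901).

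The cerebellum was also set against the cortex in the 3 other groups of genotype and treatment, which share no library with naive WT mice. WT mice with crush gave 181 calls of 500 tested (36.2%), naive DYT1KI mice 198 of 499 (39.7%) and DYT1KI mice with crush 194 of 486 (39.9%). Of the naive WT calls also tested there, 144 of 210 were called in the same direction in WT mice with crush (68.6%), 75.1% of 209 in naive DYT1KI mice and 168 of 201 in DYT1KI mice with crush (83.6%). As shares of each of these groups' own calls that were also tested in naive WT mice, these were 80.4% of 179 in WT mice with crush, 81.8% of 192 in naive DYT1KI mice and 88.4% of 190.0 in DYT1KI mice with crush. No miRNA was called in opposite directions. Across miRNAs the log2 fold changes of naive WT mice correlated with those of these groups at r = 0.90, 0.91 and 0.95, over 483, 484 and 469 miRNAs, which are not independent replicates and share tissue, kits and depth differences. In all 4 groups 52 miRNAs were called higher and 59 lower. MiR-206-3p was at 7.29 ± 0.24 in WT mice with crush, 8.13 ± 0.25 in naive DYT1KI mice and 7.08 ± 0.48 in DYT1KI mice with crush, and miR-139-5p at -3.24 ± 0.13, -2.82 ± 0.14 and -3.19 ± 0.19.

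Whether a regional difference itself differed was tested over all 47 cerebellar and cortical libraries as naive WT minus each other group. By edgeR 0 of 607 miRNAs passed the adjusted p in each of the 3 tests (0%), with 71, 75 and 18 at an unadjusted p under 0.05 against WT with crush, naive DYT1KI and DYT1KI with crush. Limma voom also gave 0 in each. With the mouse as a block, 6 miRNAs passed against naive DYT1KI mice: miR-153-5p, miR-20a-5p, miR-376b-3p, miR-29a-3p, miR-300-3p and miR-3068-5p, all with a higher log2 fold change, cerebellum over cortex, in naive WT mice. The differences were 0.73 ± 0.18 for miR-153-5p, 0.66 ± 0.16 for miR-20a-5p and 0.83 ± 0.20 for miR-376b-3p (limma voom with an estimated correlation within mice, adjusted p 0.0324 each), and 0.73 ± 0.19 for miR-29a-3p, 0.70 ± 0.19 for miR-300-3p and 0.52 ± 0.14 for miR-3068-5p (adjusted p 0.0499 each). Against WT with crush, leaving out biol rep 3, 4 or 5 of the injured cerebellum gave 1, 1 and 2 miRNAs, miR-664-3p in each and miR-7080-5p in the last. MiR-664-3p was at -3.08 ± 0.32 in naive WT mice and at -0.74 ± 0.53 in WT mice with crush.

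The cortical level of the Htr2c-hosted miRNAs varied widely between libraries of the other groups. As CPM of the library total with no TMM factor, miR-1298-5p had 334, 456 and 679 (lowest, median, highest) in the cerebellum of naive WT mice and 8.57, 15.02 and 29.1 in their cortex. In the cortex of the other groups the highest library was at 368 in WT mice with crush, 1375 in naive DYT1KI mice and 853 in DYT1KI mice with crush, while the medians were 21.3, 17.1 and 14.7. Its log2 fold change was 2.59 ± 0.83 in WT mice with crush, 1.25 ± 1.10 in naive DYT1KI mice and 2.23 ± 1.16 in DYT1KI mice with crush, the last 2 not called. The difference of the naive WT value from that of naive DYT1KI mice was 4.07 ± 1.45 for miR-1298-5p and 3.50 ± 1.23 for miR-448-3p, with an adjusted p of 0.23 for each. MiR-34c-5p, of the choroid plexus and ependyma list, had its highest cortical library at 232 in naive WT mice, 464 in WT mice with crush, 1299 in naive DYT1KI mice and 757 in DYT1KI mice with crush. The part of choroid plexus or ependyma in these libraries was not tested.

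**Figure D5:**
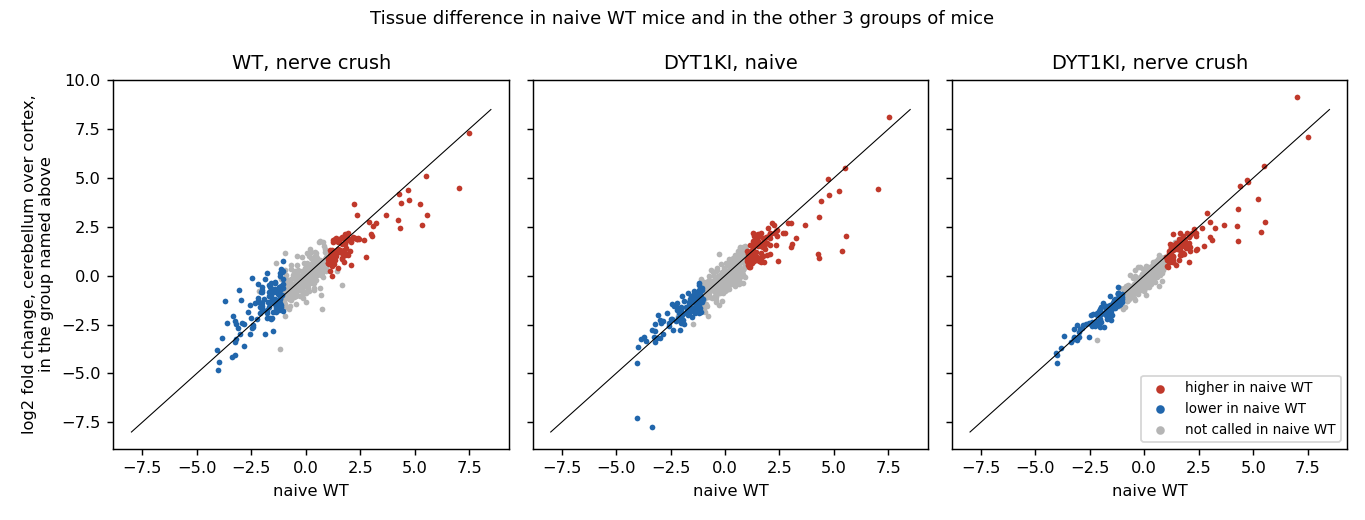
Log2 fold change, cerebellum over cortex, in WT mice with crush, naive DYT1KI mice and DYT1KI mice with crush (vertical axes, 1 panel each) against that in naive WT mice (horizontal axis), 1 point per miRNA tested in both, coloured red where it was called higher and blue where it was called lower in the cerebellum of naive WT mice, with miRNAs at 0 in all libraries of a tissue left out. Points follow the diagonal, with r = 0.90, 0.91 and 0.95 over all miRNAs tested in both, and the 6 Htr2c-hosted miRNAs, among the points with the highest values in naive WT mice, lie below it.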

How the data were processed

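Per the labels' protocols, small RNA libraries (QIAseq miRNA UDI kit) took 500 ng of total RNA. The authors deposited whole read counts per mature miRNA in 12 tables, per the file headers, 9 of which repeat the counts of the other 3, and no per-library column was left unmapped. R 4.1.0 and featureCounts 1.6.4 are named in the submitters' processing notes without a role. Aligner, genome build, annotation and any collapsing by molecular identifier were not given in the sources used here. In the 12 libraries the smallest count above 0 was 2.

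The count columns of both tissues were joined by miRNA name and fitted in R 4.3.3 with edgeR 4.0.16 (TMM, filterByExpr with minimum count 10 and minimum total 15, robust quasi-likelihood test, 1 coefficient per tissue). A call was a Benjamini-Hochberg adjusted p under 0.05 over all miRNAs tested and a log2 fold change of at least 1 in size. Arm ratios were tested with limma 3.58.1 and a pseudocount of 0.5. Differences from other groups were contrasts over 47 libraries, and the striatum was compared in a fit of 18. DESeq2 1.42.0 and limma voom were alternatives, beside other scalings, no filter, the mouse as a block and leaving out each library. The shallowest of the 12 libraries places a floor of 3 counts at 0.579 CPM, and intervals of this kind cover counting error only. Bounds for miRNAs at 0 in a tissue used library totals with no TMM factor.

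Both tissues came from the same 6 mice by the animal numbers in the labels, and the deviations of same-numbered libraries from their group means correlated at 0.15 to 0.567, although 3 of 6 correlated best with their own mouse and both tissues split into biol reps 1 to 3 and 4 to 6. The pairing is taken from the labels. Results that change with the block are given beside them.

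Named are the 15 miRNAs per direction with the largest calls, at least 10 CPM in the higher tissue and no overlap, the 10 most abundant per tissue, called members of 27 lists (others as values), miRNAs at 0 in all libraries of a tissue and at 5 or more counts in all of the other, the 8 arm ratios with the smallest adjusted p, and differences from other groups that passed. Members, lists and tests were chosen with earlier results of these data known, and the scaling by library totals alone was added after seeing the data. Strands joined by a slash share a row of the tables.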

Additional observations from a re-analysis of the deposited data

Results flagged for a closer look

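In 11 of 180 sets of 6 libraries a single library lay apart from the other 5 by Dixon's 95% criterion, and chance flags about 5% of sets. Biol rep 5 of the cortex, with the fewest counts and the highest TMM factor, was lowest for 5 abundant miRNAs. Its let-7f-5p level was 33257.0 CPM (others 53949.6 to 65393.5), let-7g-5p 31047.4 CPM (others 50889.8 to 58679.8) and miR-124-3p 29118.4 CPM (others 42751.0 to 47473.3). Its miR-26a-5p level was 28860.0 CPM (others 41912.7 to 46474.5) and miR-26b-5p 3570.2 CPM (others 5724.9 to 6560.4).

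Biol rep 2 had the highest miR-451a level in both tissues, 16.97 CPM in the cerebellum (others 0 to 3.74) and 32.6 CPM in the cortex (others 1.67 to 12.8). In the cerebellum, biol rep 4 was highest for miR-223-3p at 38.3 CPM (others 9.17 to 16.4) and for miR-96-3p at 1.93 CPM (others 0.544 to 0.935). Biol rep 1 of the cerebellum was highest for miR-34b-5p at 78.97 CPM (others 28.4 to 45.7), and biol rep 2 lowest for miR-34c-5p at 904 CPM (others 1196.5 to 1309.9).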

How the results depend on the processing

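Between cerebellum and cortex, 218 miRNAs were called, 104 higher and 114 lower. A test against a threshold of 1 log2 unit (edgeR's glmTreat) called 63 higher and 75 lower, and the adjusted p alone gave 164 higher. Library totals alone, added after seeing the data, called 57 higher and 171 lower, and 63 higher in cerebellum than striatum instead of 95. The 18-library fit called 93 higher and 143 lower with a median shift of -0.17. Leaving out each library gave 215 to 236 calls, no filter 264, the 47-library fit 252, DESeq2 221, limma voom 219, and the mouse as a replicate block 223. Arm ratio calls ran from 29 to 57. The test of the difference from WT mice with crush gave 0 to 2 miRNAs when a library was left out, 2 without biol rep 5 of the injured cerebellum, and the replicate block (limma voom) gave 6 instead of 0 for naive DYT1KI mice. Of 136 named calls the block ended 3, miR-1a-3p (0.95), miR-142a-3p (-0.96) and miR-30b-3p (0.99), and it changed no other named call except that miR-451a became called (-1.73). Library totals alone ended 27 and made 23 new calls among the named, the other settings ended 0 to 12, and no named value changed sign where it was called. The cause of these changes was not tested. Small RNA shares sum to a fixed total, so a fold change depends on the scaling, and counts below 3 limit the low-count arms.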

Other observations

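MiR-24-3p, one of the abundant miRNAs of brain, did not enter the test because it was counted in few libraries. It was at 0 in all 6 naive WT cerebellar libraries and above 0 in 3 of the 6 naive WT cortical libraries. Over the study it was above 0 in 2 of 23 cerebellar libraries (69536 and 78452 counts), in 8 of 24 cortical libraries (94332 to 132962 counts) and in 0 of 24 striatal libraries, with no value between 0 and 69536.

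MiR-7066-5p, at 0 in the naive WT cerebellum, was above 0 in 2 of 23 cerebellar libraries of the study (57 and 63 counts), in 24 of 24 cortical libraries (82 to 211 counts) and in 22 of 24 striatal libraries (102 to 205 counts). In the scaling over 18 libraries miR-135b-5p, chosen after its values were seen, was lower in the cerebellum (16.7 CPM) than in the cortex (42.0 CPM) of naive WT mice and called higher in the cerebellum than in their striatum (5.50 ± 0.742 CPM, SD, n = 6).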
